A study of Mus musculus with 16 samples.

Results

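Macrophages that lack Camkk2 were grown from bone marrow with or without tumor-conditioned medium, and the change in their gene expression is described here over 8 of the 16 arrays of the series. Camkk2-/- bone marrow-derived macrophages (BMDM) in tumor-conditioned medium (TCM-BMDM, 4 arrays) were compared with Camkk2-/- BMDM in regular medium (RM-BMDM, 4 arrays), over all 19505 genes whose probe sets carried a single gene symbol. CaMKK2 is a kinase activated by calcium and calmodulin that phosphorylates CaMKI, CaMKIV and AMPK, and in macrophages it is known for its part in inflammatory responses and in the sensing of energy. In both media marrow cells were kept for 5 days with 30% L929-conditioned medium, which supplies CSF1, the growth factor that drives macrophage differentiation. TCM was added on top of it and came from E0771 cells, a mouse mammary tumor line, after 3 days of conditioning. The share of TCM in the culture was 20% per the labels and 25% per the methods. Per the methods, RM cultures were given the same volume of unconditioned regular medium in its place. The knockout is carried by the whole mouse and not by macrophages alone, the donors were females of 10 to 12 weeks, and marrow of 16 mice per genotype was pooled into 4 biological replicates. No source used here says whether RM and TCM cultures of the same number share marrow, and p-values measure only the spread between these cultures. The other 8 arrays are of wild-type (WT, Camkk2 +/+) BMDM in the same 2 media. They serve below where the response of the knockout was tested against that of WT. They also share the estimate of each gene's spread, on which the p-values of the knockout response rest. With the 8 Camkk2-/- arrays alone, 1314 genes were called higher and 1207 lower, against 1195 and 1047 with all 16.

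The deleted gene was measured first. Camkk2 had log2 signals of 7.20, 7.43, 6.07 and 6.26 in the 4 Camkk2-/- RM-BMDM arrays and of 7.94, 7.29, 8.15 and 7.24 in the 4 Camkk2-/- TCM-BMDM arrays. All 8 lay below the WT arrays, which spanned 9.11 to 9.83 in RM and 9.14 to 9.68 in TCM. The residual signal was higher in TCM than in RM (log2 fold change 0.91, standard error 0.28, adjusted p = 0.0382) although the arrays of the 2 media overlapped, and leaving out RM replicate 3 or 4 or TCM replicate 1 or 3 ended the call (adjusted p = 0.109 to 0.15). No source used here says which exons this probe set reads. Signals are on a log2 scale, so that a difference of 1 is a doubling. Background below means 5.37, the median over control probe sets without a target in the mouse genome.

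The label of the cells was checked against markers. Macrophage markers were far above background, with a mean over 8 markers of 15.93 to 16.27 in RM and 15.75 to 16.06 in TCM, and 4 of them fell and 1 rose (median log2 fold change -0.54). Markers of T, B, NK, erythroid, stromal and epithelial or tumor cells had means of 4.29 to 6.35 in every Camkk2-/- array, near the background. Of these lists Klrd1, Cdh1 and Dcn, single members of the NK, epithelial and stromal lists, rose and the NK cell gene Klrb1c fell (log2 fold changes 1.11, 1.73, 0.96 and -0.88), genes chosen for mention after their values were seen. Klrd1 lost its call without RM replicate 4 or TCM replicate 3 (adjusted p = 0.0637 and 0.0764, respectively), and Klrb1c without any one of RM replicates 1, 3 and 4 and TCM replicates 1, 3 and 4 (adjusted p = 0.0716 to 0.121). Markers of neutrophils lay higher, and their mean over 12 genes was 8.59 to 9.55 in RM and 10.26 to 11.49 in TCM, and 7 of them rose. The mean of 7 mast cell and basophil markers was 5.25 to 5.93 in RM and 6.17 to 7.25 in TCM, and 4 of them rose. Of 9 dendritic cell markers 4 rose and 1 fell (mean 6.55 to 6.95 in RM and 6.88 to 7.45 in TCM), and of 5 eosinophil and 3 megakaryocyte markers 1 and 0 rose. These are bulk samples, in which more cells of a type and more RNA per cell cannot be told apart. The labels put more than 95% of the cells as positive for both CD11b and F4/80.

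The response of Camkk2-/- BMDM to TCM was broad, and its extremes were on the rising side. With limma and p-values adjusted over all genes, 1195 genes rose (6.13% of those tested) and 1047 fell (5.37%), at an adjusted p under 0.05. Among the 10684 genes with a mean above background these shares were 9.85% and 9.04%. The median log2 fold change was 1.00 over the genes that rose, -0.84 over those that fell and 0.01 over all genes. A change of 3 or more on the log2 scale was reached by 68 rising and 9 falling genes, and a change of 5 or more by 10 rising and 0 falling genes. For 2064 of the 2242 called genes the 4 TCM arrays did not overlap the 4 RM arrays, against 18.7% of all genes. The calls rest on these same arrays, so this count is a description and no added support. In 155 called genes both means lay below background.

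**Figure D1:**
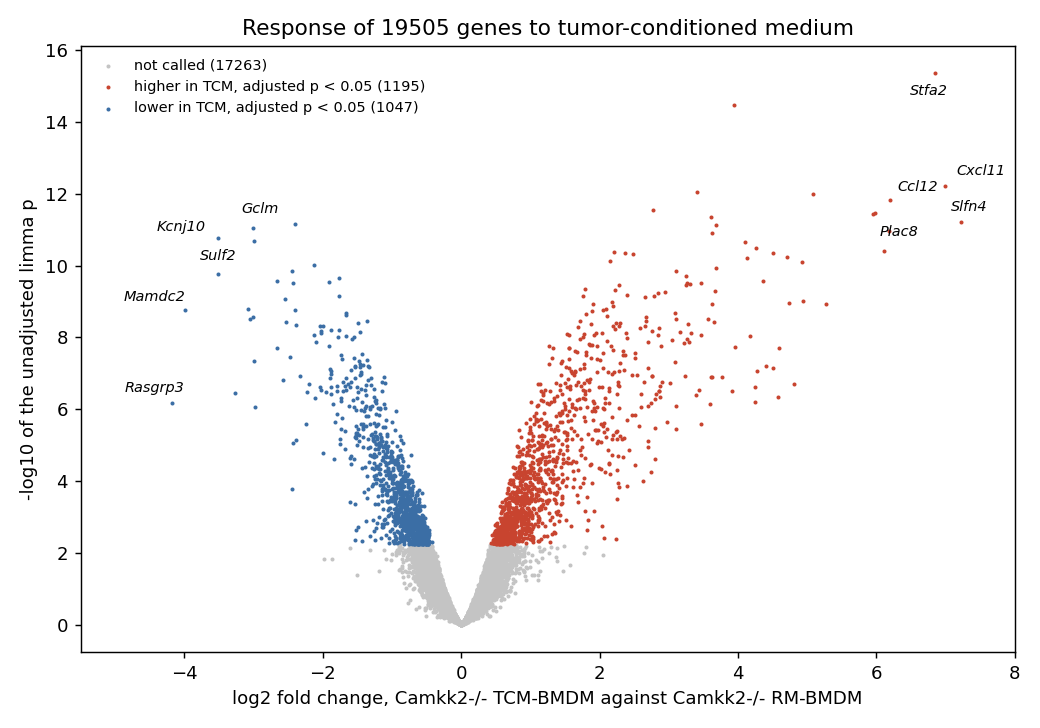
Each point is 1 of 19505 genes, with the log2 fold change between Camkk2-/- TCM-BMDM and RM-BMDM on the x axis and -log10 of the unadjusted limma p on the y axis, from 4 arrays per medium. The 1195 genes that rose (red) reach a log2 fold change of 7.23 in Slfn4, and the 1047 that fell (blue) reach -4.18 in Rasgrp3.

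The genes with the steepest rise had varied roles. Slfn4, of the Schlafen family, went from 6.96, 9.06, 9.78 and 8.46 in the RM arrays to 15.65, 15.91, 16.31 and 15.30 in the TCM arrays. This was the largest rise of all (log2 fold change 7.23, standard error 0.50, adjusted p = 1.07e-08), and RM replicate 1 was the lowest of the 4 RM arrays. Stfa2, a stefin that inhibits cysteine cathepsins, was at 5.81, 5.52, 6.12 and 5.69 in RM and 12.91, 12.52, 12.95 and 12.14 in TCM. Its log2 fold change of 6.85 had a standard error of 0.28 (adjusted p = 8.64e-12), and the RM arrays lay close to background. Plac8, a small cysteine-rich protein of myeloid cells, had signals of 11.66, 10.81, 11.22 and 9.94 in RM and 16.97, 17.00, 17.19 and 16.27 in TCM, a rise of 5.95 (adjusted p = 8.08e-09). Cfb, which encodes factor B of the alternative complement pathway, rose by 4.94 (adjusted p = 3.3e-07), Klra2, a lectin receptor of the Ly49 family, by 4.93 (adjusted p = 5.24e-08), and Cd69, an early activation antigen, by 4.74 (adjusted p = 3.72e-07). Other stefins moved with Stfa2: Stfa2l1 rose by 5.98, Cstdc4 by 5.09, Csta2 by 4.71 and Stfa3 by 3.68 (adjusted p = 8.08e-09, 3.86e-09, 4.2e-08 and 1.12e-08, respectively). Stefins, Schlafens and several families named below have near-identical copies, and which copy a probe set reads is uncertain.

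**Figure D2:**
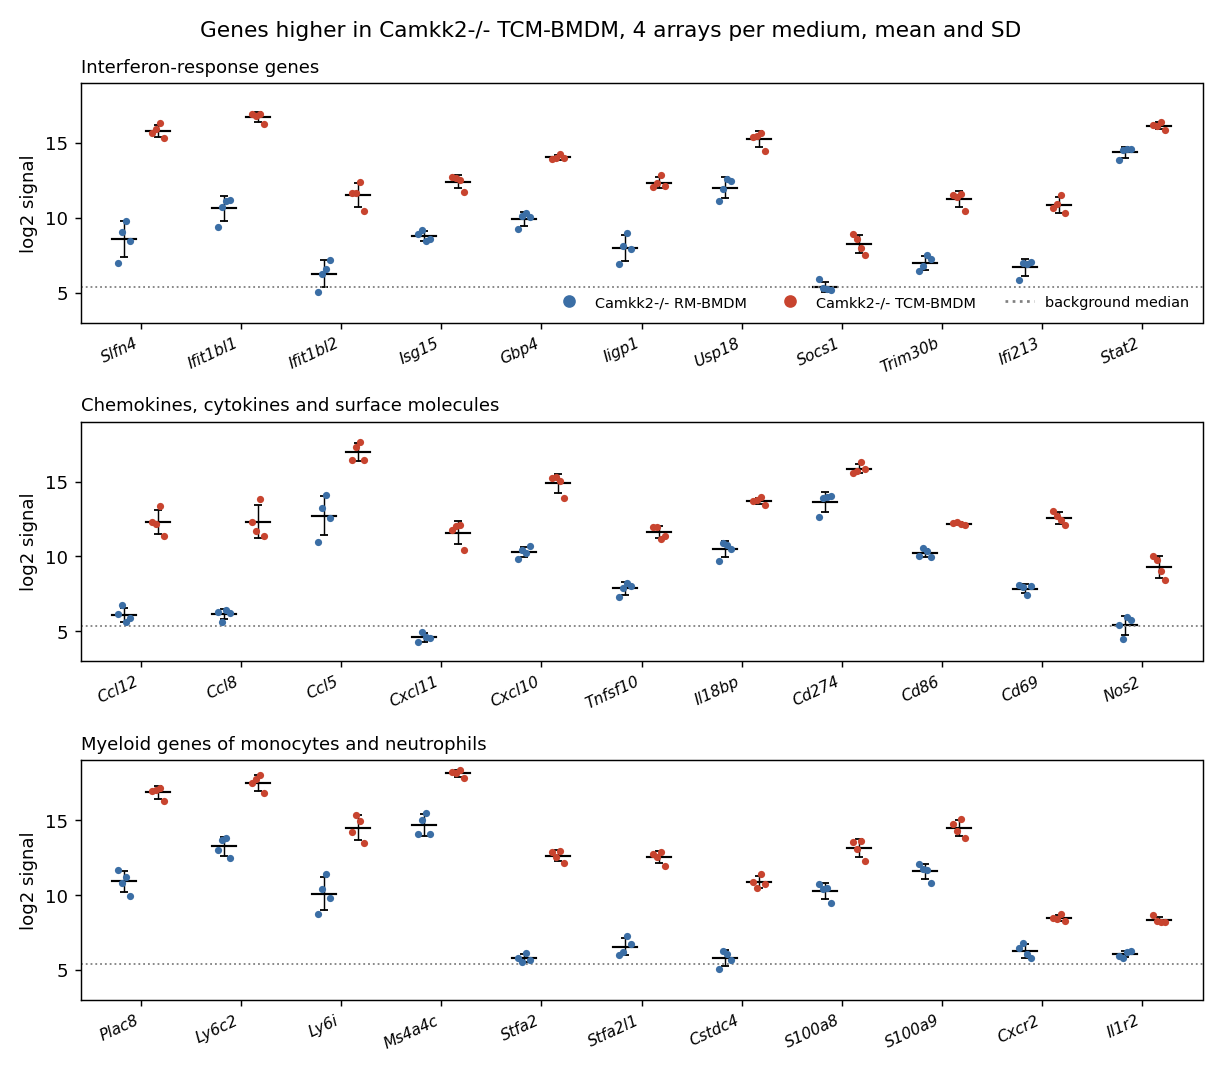
Log2 signal (y axis) of 33 genes in the 4 Camkk2-/- RM-BMDM arrays (blue) and the 4 Camkk2-/- TCM-BMDM arrays (red), with mean and SD as black bars and the background median of 5.37 as a dotted line. For every gene shown the red points lie above the blue ones, and Cxcl11, Stfa2 and Socs1 start at or near background in RM.

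Interferons act through the receptor IFNAR, the kinases JAK1 and TYK2 and the factor ISGF3, which includes STAT2 and IRF9 and binds the interferon-stimulated response element (ISRE) in the promoters of its target genes. List counts here and below stand against the shares over all genes, 6.13% that rose and 5.37% that fell (9.85% and 9.04% of genes above background). Of 17 signalling genes 8 rose and 0 fell. Those that rose were the factors Stat2, Irf1, Irf7 and Irf9 and the feedback and effector genes Usp18, Socs1, Socs3 and Adar, whereas the receptor chains Ifnar1 and Ifnar2 had log2 fold changes of 0.21 and 0.39 and the kinases Jak1 and Tyk2 of 0.12 and 0.37 (adjusted p = 0.529, 0.0855, 0.725 and 0.117). These 4 genes and Irf1, Irf7 and Irf9 were chosen for mention after their values were seen. The call of Irf9 was lost when any one of RM replicates 1 and 4 and TCM replicates 2, 3 and 4 was left out (adjusted p = 0.0558 to 0.0793). Socs1, a feedback inhibitor of JAK kinases, was at 5.90, 5.33, 5.21 and 5.19 in RM and 8.90, 8.59, 8.00 and 7.51 in TCM (log2 fold change 2.84, standard error 0.30, adjusted p = 1.44e-06). Usp18, which removes ISG15 from proteins and restrains IFNAR, went from 11.11, 11.92, 12.59 and 12.46 to 15.38, 15.49, 15.65 and 14.49 (log2 fold change 3.23, standard error 0.40, adjusted p = 1.08e-05). In both genes the 2 groups of arrays did not overlap, and TCM replicate 4 was the lowest of the TCM arrays. Stat2 rose by 1.77 (adjusted p = 1.52e-05), the RNA editing enzyme Adar by 1.22 (adjusted p = 0.000637) and the feedback inhibitor Socs3 by 1.46 (adjusted p = 0.00231).

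The effectors below them rose almost without exception. Of 37 antiviral effectors 36 rose, with a median log2 fold change of 2.24. All 17 measured TRIM and Schlafen genes (median 1.76) and all 11 measured guanylate-binding proteins and immunity-related GTPases (median 3.29) rose as well, where 6.13% of all genes did. Isg15, a ubiquitin-like protein that is joined to other proteins, had signals of 8.89, 9.20, 8.47 and 8.58 in RM and 12.72, 12.63, 12.53 and 11.75 in TCM. The 2 groups lay more than 2 units apart and Isg15 rose by 3.62 (standard error 0.26, adjusted p = 1.52e-08). Ifit1bl1 and Ifit1bl2, members of the IFIT family of RNA-binding proteins, rose by 6.11 and 5.28 (adjusted p = 3.62e-08 and 3.77e-07), Phf11d by 3.11 (adjusted p = 7.62e-07) and Oas1a, a sensor of double-stranded RNA that makes the second messenger 2-5A, by 2.09 (adjusted p = 4.88e-07). Gbp4, a guanylate-binding protein, was at 9.22, 10.09, 10.30 and 10.04 in RM and 13.91, 13.97, 14.29 and 13.98 in TCM. Its TCM arrays differed by less than 0.5 while its RM arrays spread over 1 unit, and its log2 fold change was 4.12 (adjusted p = 4.35e-08). Iigp1, an immunity-related GTPase that acts on the vacuoles of intracellular pathogens, rose by 4.37 (adjusted p = 1.36e-07), Gbp8 by 3.61, Gbp7 by 3.32 and Gbp3 by 3.29 (adjusted p = 8.35e-09, 1.34e-06 and 2e-06). Among the TRIM and Schlafen genes Trim30b rose by 4.26 (adjusted p = 3.1e-08), Slfn1 by 4.80 (adjusted p = 1.58e-05) and Slfn9 by 2.94 (adjusted p = 2.2e-07).

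The promoters of the 3 effectors Isg15, Ifit1bl2 and Gbp3 are shown as examples. They come from RefSeq on build GRCm38.p6, with 250 bases before and 50 after the start of the gene. No stated rule picked these 3 and all of them hold a match, so they do not stand for their lists. Capitals mark every match to the ISRE letters GAAA, 2 free bases and GAAA again, on either strand (TTTC, 2 free bases and TTTC on the other strand), and overlapping matches run together.
Isg15, chr4:156200769-156201068, minus strand: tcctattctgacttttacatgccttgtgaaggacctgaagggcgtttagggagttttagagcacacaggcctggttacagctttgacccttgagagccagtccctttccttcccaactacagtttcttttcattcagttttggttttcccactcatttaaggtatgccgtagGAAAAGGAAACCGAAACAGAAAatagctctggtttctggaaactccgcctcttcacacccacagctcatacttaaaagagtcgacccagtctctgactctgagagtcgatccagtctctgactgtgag
Ifit1bl2, chr19:34640694-34640993, minus strand: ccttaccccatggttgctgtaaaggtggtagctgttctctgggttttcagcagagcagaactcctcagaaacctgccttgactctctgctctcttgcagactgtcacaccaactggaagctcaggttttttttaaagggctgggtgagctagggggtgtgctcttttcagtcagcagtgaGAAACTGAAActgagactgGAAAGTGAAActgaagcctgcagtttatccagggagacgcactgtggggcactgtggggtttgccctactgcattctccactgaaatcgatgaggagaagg
Gbp3, chr3:142559794-142560093, plus strand: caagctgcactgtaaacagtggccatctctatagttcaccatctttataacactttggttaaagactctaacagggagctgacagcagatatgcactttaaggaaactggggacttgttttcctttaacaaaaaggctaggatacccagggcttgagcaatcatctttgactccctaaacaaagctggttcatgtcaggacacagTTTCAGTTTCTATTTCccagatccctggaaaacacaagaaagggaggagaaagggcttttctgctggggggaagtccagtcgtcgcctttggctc
Isg15 has 3 overlapping matches, the nearest starting 66 bases before the gene, Ifit1bl2 has 2, the nearest at 51 bases, and Gbp3 has 2 overlapping ones, the nearest at 39 bases. Ifit1bl2 and Gbp3 each have 2 windows in the table, of which the one with more matches is shown. Of 15691 measured genes with a window, 3.94% held a match, of the antiviral effectors 15 of 30, of the TRIM and Schlafen genes 8 of 15 and of the GBP and IRG genes 7 of 7. Over all genes that rose the share was 10.6%, and over those that fell 2.57%. A match is a description of the letters and no measurement of binding.

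Sensors of nucleic acids and of bacterial cell walls, many of which act upstream of interferon, rose in 21 of 28 cases. Ifi213, of the family of DNA-binding IFI200 proteins, was at 5.82, 6.97, 6.92 and 7.02 in RM and 10.63, 10.93, 11.54 and 10.30 in TCM. This was the largest rise of the list (log2 fold change 4.17, standard error 0.44, adjusted p = 1.47e-06), and RM replicate 1 lay more than 1 unit under the other RM arrays. Its relatives Ifi204 and Mndal rose by 1.88 and 1.80 (adjusted p = 9.21e-07 and 3.79e-06), the endosomal sensor of double-stranded RNA Tlr3 by 2.28 (adjusted p = 9.98e-07) and the inflammasome sensor Aim2 by 1.56 (adjusted p = 4.81e-06). Mavs, the mitochondrial adaptor through which the RNA helicase sensors signal, fell (log2 fold change -0.84, standard error 0.24, adjusted p = 0.0253), but not when any one of RM replicates 3 and 4 and TCM replicates 1, 2 and 3 was left out (adjusted p = 0.0597 to 0.0887).

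**Figure D3:**
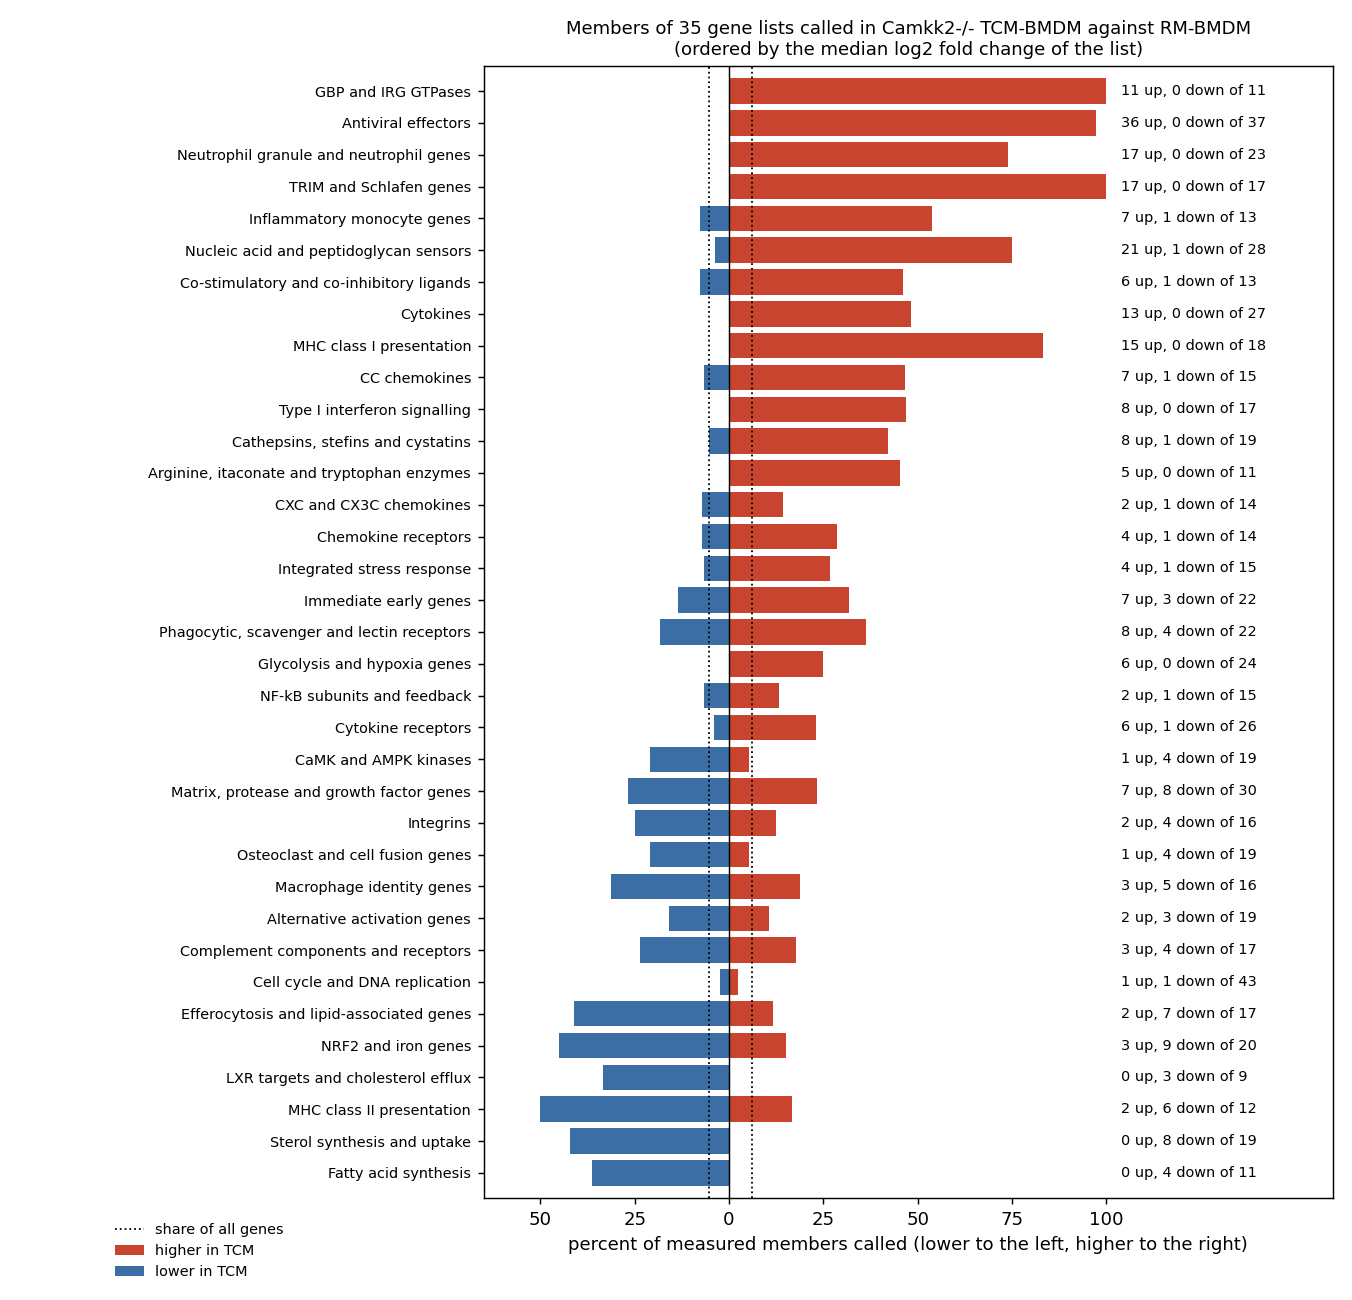
Percent of the measured members of 35 gene lists (x axis) that rose (red, to the right) or fell (blue, to the left) in Camkk2-/- TCM-BMDM against RM-BMDM, with the counts beside each bar and the shares over all genes, 6.13% and 5.37%, as dotted lines. Lists are ordered by their median log2 fold change, from GBP and IRG GTPases (3.29) at the top to fatty acid synthesis (-0.90) at the bottom.

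The 2 routes of antigen presentation moved apart. MHC class I molecules show peptides made by the proteasome in the cytosol, and of 18 genes of this route 15 rose and 0 fell. H2-T22, a class I molecule outside the classical set, went from 11.43, 11.44, 12.15 and 12.23 in RM to 14.39, 14.43, 14.60 and 14.19 in TCM (log2 fold change 2.59, standard error 0.27, adjusted p = 1.11e-06). H2-Q4 rose by 1.84 (adjusted p = 2.05e-05), the peptide transporter Tap1 by 1.64 (adjusted p = 8.82e-06), and the immunoproteasome subunits Psmb9 and Psmb8 by 1.80 and 1.06 (adjusted p = 6.08e-07 and 7.57e-05). MHC class II molecules show peptides from endosomes to CD4+ T cells, and of 12 genes of this route 6 fell and 2 rose. Ciita, the factor that switches on class II genes, was at 10.49, 11.24, 10.54 and 10.29 in RM and 9.07, 8.70, 9.08 and 8.80 in TCM. Its 2 groups of arrays did not overlap (log2 fold change -1.73, standard error 0.24, adjusted p = 3.05e-05). The chains H2-Eb1, H2-Aa and H2-Ab1 fell by 1.56, 1.32 and 1.00 on the log2 scale (adjusted p = 1.55e-06, 0.000602 and 0.00209), yet in TCM they still had mean signals of 14.42, 16.33 and 15.97. The members that rose were H2-Eb2 (1.27, adjusted p = 0.00334) and H2-Oa (1.12, adjusted p = 0.00962), a chain of the class II chaperone that restrains peptide loading, both from signals near background.

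Chemokines that attract monocytes and activated T cells were among the strongest responders. Of 15 CC chemokines 7 rose and 1 fell. The monocyte attractants Ccl12 and Ccl8 were close to background in RM (6.13, 6.73, 5.63 and 5.87 for Ccl12 and 6.28, 5.63, 6.41 and 6.23 for Ccl8). In TCM they reached 12.28, 12.14, 13.36 and 11.40 and 12.27, 11.73, 13.87 and 11.40, respectively, rises of 6.20 and 6.18 (adjusted p = 4.67e-09 and 1.42e-08), with replicate 3 highest and replicate 4 lowest for both. Ccl5, an attractant of T cells, spread widely in RM (10.98, 13.27, 14.09 and 12.57) and was at 16.47, 17.30, 17.64 and 16.45 in TCM (log2 fold change 4.24, standard error 0.55, adjusted p = 1.75e-05). Ccl7 and Ccl4 rose by 2.60 and 2.23 (adjusted p = 4.75e-05 and 1.99e-07). Ccl24, an attractant of eosinophils tied to alternative activation, went the other way, from 8.86, 9.16, 7.38 and 6.97 in RM to 5.90, 5.59, 5.35 and 5.77 in TCM (log2 fold change -2.44, standard error 0.41, adjusted p = 0.000303). Among 14 CXC and CX3C chemokines 2 rose and 1 fell, and those that rose were ligands of CXCR3. Cxcl10 had signals of 9.85, 10.46, 10.22 and 10.68 in RM and 15.27, 15.31, 15.02 and 13.93 in TCM (log2 fold change 4.58, standard error 0.62, adjusted p = 2.84e-05). Cxcl11 was below background in all 4 RM arrays (4.26, 4.95, 4.64 and 4.54) and at 11.74, 12.04, 12.13 and 10.45 in TCM, so that its log2 fold change of 6.996 (adjusted p = 3.84e-09) depends on the background signal. Of the chemokine receptors 4 of 14 rose, namely Ccr1 (2.39), Cxcr2 (2.20), Ccrl2 (2.13) and Ccr7 (0.94, adjusted p = 2.54e-07, 3e-06, 0.000868 and 0.00185), and Cxcr4, the receptor of CXCL12, fell (log2 fold change -1.13, standard error 0.24, adjusted p = 0.00304).

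Of 27 cytokines 13 rose and 0 fell. Il18 and its soluble inhibitor Il18bp rose side by side. Il18 went from 10.17, 10.14, 10.38 and 9.95 in RM to 12.37, 12.53, 12.37 and 11.97 in TCM (log2 fold change 2.15, standard error 0.17, adjusted p = 5.17e-08), and Il18bp from 9.73, 10.92, 10.77 and 10.52 to 13.73, 13.80, 13.94 and 13.47 (log2 fold change 3.25, standard error 0.28, adjusted p = 1.54e-07). For both, every TCM array was above every RM array by more than 1 unit. Tnfsf10, which encodes the death ligand TRAIL, rose by 3.77 (adjusted p = 1.11e-05), Tnfsf8, the ligand of CD30, by 2.05 (adjusted p = 7.46e-06), and the IL-27 subunit Il27 by 1.76 (adjusted p = 3.05e-05). Receptors of cytokines moved in 6 cases upward and in 1 downward, of 26. The decoy receptor for IL-1, Il1r2, rose by 2.26, the presenting chain for IL-15, Il15ra, by 2.20, and the chains of the type II receptor for IL-4 and IL-13, Il13ra1 and Il4ra, by 1.64 and 1.26 (adjusted p = 1.64e-05, 9.98e-07, 3.08e-06 and 6.05e-06). Csf1r, the receptor for the growth factor in both media, fell from 17.51, 17.58, 17.37 and 17.14 to 16.52, 16.83, 16.53 and 16.50 (log2 fold change -0.81, standard error 0.16, adjusted p = 0.00179).

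Ligands that tune T cells rose on both the activating and the inhibiting side, 6 of 13 in all. Cd86, a ligand of CD28, was at 10.05, 10.53, 10.37 and 9.97 in RM and 12.22, 12.31, 12.14 and 12.10 in TCM (log2 fold change 1.97, standard error 0.24, adjusted p = 8.98e-06). Cd274, which encodes PD-L1, went from 12.63, 13.87, 13.95 and 14.06 to 15.60, 15.74, 16.28 and 15.85 (log2 fold change 2.24, standard error 0.36, adjusted p = 0.000173), and RM replicate 1 stood more than 1 unit under the other RM arrays. Cd40 rose by 1.79 (adjusted p = 0.000687), Cd80 by 1.22 (adjusted p = 0.00599) and Lgals9, the ligand galectin-9, by 1.42 (adjusted p = 0.00318). Vsir, which encodes the inhibitory ligand VISTA, fell (log2 fold change -0.61, standard error 0.14, adjusted p = 0.00651).

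Of 11 enzymes of arginine, itaconate and tryptophan metabolism 5 rose and 0 fell. Nos2, the inducible nitric oxide synthase, was at 5.43, 4.50, 5.94 and 5.74 in RM and 10.03, 9.79, 9.0 and 8.42 in TCM. The RM arrays lay around background and Nos2 rose by 3.91 (standard error 0.52, adjusted p = 2.15e-05). Arg2, the mitochondrial arginase, rose by 2.70 (adjusted p = 0.000277), and Acod1, which makes itaconate from aconitate, by 2.51 (adjusted p = 0.000954). Genes of alternative activation gave no common direction, with 2 of 19 higher (4 without WT TCM replicate 3, which shares the estimate of spread) and 3 lower. The 2 higher were Il4ra and Socs2, and the 3 lower were Ccl24, Cd36 and Mrc1, which encodes the mannose receptor CD206. Arg1, the arginase of alternative activation, had a log2 fold change of 0.30 (adjusted p = 0.615), which did not pass the test. It is given though outside the rule for named genes.

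Genes of inflammatory monocytes and of neutrophils rose as well. The neutrophil genes share members with the neutrophil markers above, among them S100a8, S100a9 and Cxcr2, so the 2 counts are not separate results. Of 13 monocyte genes 7 rose and 1 fell. Ly6c2, the antigen that defines inflammatory monocytes, went from 12.999, 13.68, 13.81 and 12.50 in RM to 17.48, 17.77, 18.04 and 16.80 in TCM (log2 fold change 4.27, standard error 0.52, adjusted p = 8.46e-06), and Ly6c1, from which its probes may not be told apart, rose by 4.50 (adjusted p = 7.42e-06). Ms4a4c rose from 14.07, 15.04, 15.50 and 14.09 to 18.20, 18.16, 18.37 and 17.83 (log2 fold change 3.47, standard error 0.37, adjusted p = 1.46e-06), and Ly6i by 4.40 (adjusted p = 6.8e-06). Fn1, which encodes the matrix protein fibronectin, was the member that fell (log2 fold change -2.39, standard error 0.40, adjusted p = 0.000265). Of 23 neutrophil genes 17 rose and 0 fell, with a median log2 fold change of 1.81. S100a9, a subunit of the calcium-binding dimer calprotectin, had signals of 12.05, 11.75, 11.70 and 10.83 in RM and 14.78, 14.30, 15.05 and 13.83 in TCM (log2 fold change 2.91, standard error 0.37, adjusted p = 1.46e-05), and its partner S100a8 rose by 2.86 (adjusted p = 2.15e-05). Replicate 4 was the lowest array of each medium for both. The receptor Cxcr2 rose by 2.20, Wfdc21 by 2.29 and Il1r2 by 2.26 (adjusted p = 3e-06, 5.76e-06 and 1.64e-05). The part of a change in cell makeup in these genes, and in the stefins, was not tested. Of 19 cathepsins, stefins and cystatins 8 rose and 1 fell.

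Macrophage identity genes moved both ways. Of 16 such genes 5 fell and 3 rose, and 3 fell without RM replicate 2 or TCM replicate 3. Adgre1, which encodes F4/80, went from 16.37, 16.46, 16.39 and 16.07 in RM to 15.16, 15.39, 15.18 and 14.97 in TCM (log2 fold change -1.15, standard error 0.15, adjusted p = 2.12e-05). Cebpa, a transcription factor of the myeloid lineage, was at 11.95, 11.73, 12.15 and 11.80 in RM and 10.55, 9.58, 10.19 and 10.45 in TCM (log2 fold change -1.72, standard error 0.26, adjusted p = 8.76e-05). Neither gene had overlapping arrays, and F4/80 and the integrin chain CD11b, encoded by Itgam (-0.54, adjusted p = 0.0174), are the pair of antigens by which the cells were called macrophages. The call of Itgam was lost without RM replicate 2 or TCM replicate 3 (adjusted p = 0.0609 and 0.0587, respectively). The high-affinity Fc receptor Fcgr1 rose against them, from 15.42, 16.12, 16.25 and 15.78 to 17.50, 17.39, 17.49 and 17.29 (log2 fold change 1.53, standard error 0.20, adjusted p = 1.74e-05), as did the transcription factors Maf and Tfec (0.92 and 0.86, adjusted p = 0.00692 and 0.00651).

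Receptors that take up particles moved both ways. Of 22 phagocytic, scavenger and lectin receptors 8 rose and 4 fell (5 and 2 without TCM replicate 3, and 2 fell without TCM replicate 2). Stab1, a scavenger receptor also known as stabilin-1, was at 10.81, 10.71, 10.62 and 10.53 in RM and 8.62, 9.13, 8.74 and 8.59 in TCM (log2 fold change -1.90, standard error 0.23, adjusted p = 7.52e-06), and Cd36, which takes up oxidized lipoproteins and fatty acids, went from 16.42, 16.24, 16.20 and 16.15 to 15.22, 14.86, 15.05 and 15.20 (log2 fold change -1.17, standard error 0.17, adjusted p = 5.3e-05). In both the TCM arrays lay below all RM arrays. By contrast the fungal lectin receptor Clec4n and the Fc receptor Fcgr4 rose by 1.97 and 1.26 (adjusted p = 4.75e-05 and 0.000369). Of 17 genes for the clearance of dying cells and for lipid handling 7 fell and 2 rose. Gas6, which bridges dying cells to TAM receptors, went from 11.62, 11.82, 11.72 and 11.80 to 9.99, 10.03, 10.12 and 10.74 (log2 fold change -1.52, standard error 0.25, adjusted p = 0.000204). Lpl, the lipoprotein lipase, fell by 0.91 on the log2 scale (adjusted p = 0.000622), while the fatty acid-binding proteins Fabp4 and Fabp5 rose by 1.36 and 1.28 (adjusted p = 0.000842 and 0.000126).

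The largest falls were smaller than the largest rises and came from varied roles. Rasgrp3, an exchange factor for Ras and Rap, had signals of 9.62, 9.89, 8.08 and 7.99 in RM and 5.14, 4.91, 4.28 and 4.53 in TCM. All TCM arrays lay below background while RM spread over almost 2 units, so that the log2 fold change of -4.18 (adjusted p = 3.87e-05) depends on the background signal. Mamdc2 was at 13.51, 13.16, 13.11 and 13.66 in RM and 10.23, 9.35, 7.75 and 10.14 in TCM (log2 fold change -3.99, standard error 0.38, adjusted p = 4.88e-07), with TCM replicate 3 lowest. Ephx1, the microsomal epoxide hydrolase, fell by 3.52, Dcstamp, a membrane protein needed for the fusion of osteoclasts and macrophages, by 3.27, the small GTPase Rhoj by 3.08 and the secreted glutathione peroxidase Gpx3 by 3.05 on the log2 scale (adjusted p = 1.01e-07, 2.32e-05, 4.88e-07 and 7.64e-07). The proton channel Hvcn1 dropped by 3.01, the IGF-binding protein Igfbp4 by 3.00, the Fc receptor-like protein Fcrls by 2.99, and Sulf2, which trims sulfate from heparan sulfate, by 2.99 (adjusted p = 6.96e-07, 1.26e-08, 5.24e-06 and 2.22e-08). Itgax, which encodes CD11c, went from 11.39, 11.59, 11.10 and 11.46 to 9.0, 9.07, 7.46 and 9.36 (log2 fold change -2.66, standard error 0.30, adjusted p = 2.65e-06), with TCM replicate 3 lowest. Plxdc2, the Ras-related GTPase Mras, Efr3b and the potassium channel Kcnj10 fell by 2.98, 2.66, 2.57 and 3.52 (adjusted p = 4.85e-05, 1.36e-07, 1.27e-05 and 1.99e-08). Kcnj10 ended near background in TCM, so that its log2 fold change also depends on the background signal. With Dcstamp, Atp6v0d2, a proton pump subunit of osteoclasts, fell by 1.23 on the log2 scale (adjusted p = 3.38e-05), and 4 of 19 osteoclast and cell fusion genes fell in all (2 without RM replicate 1 or TCM replicate 3).

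**Figure D4:**
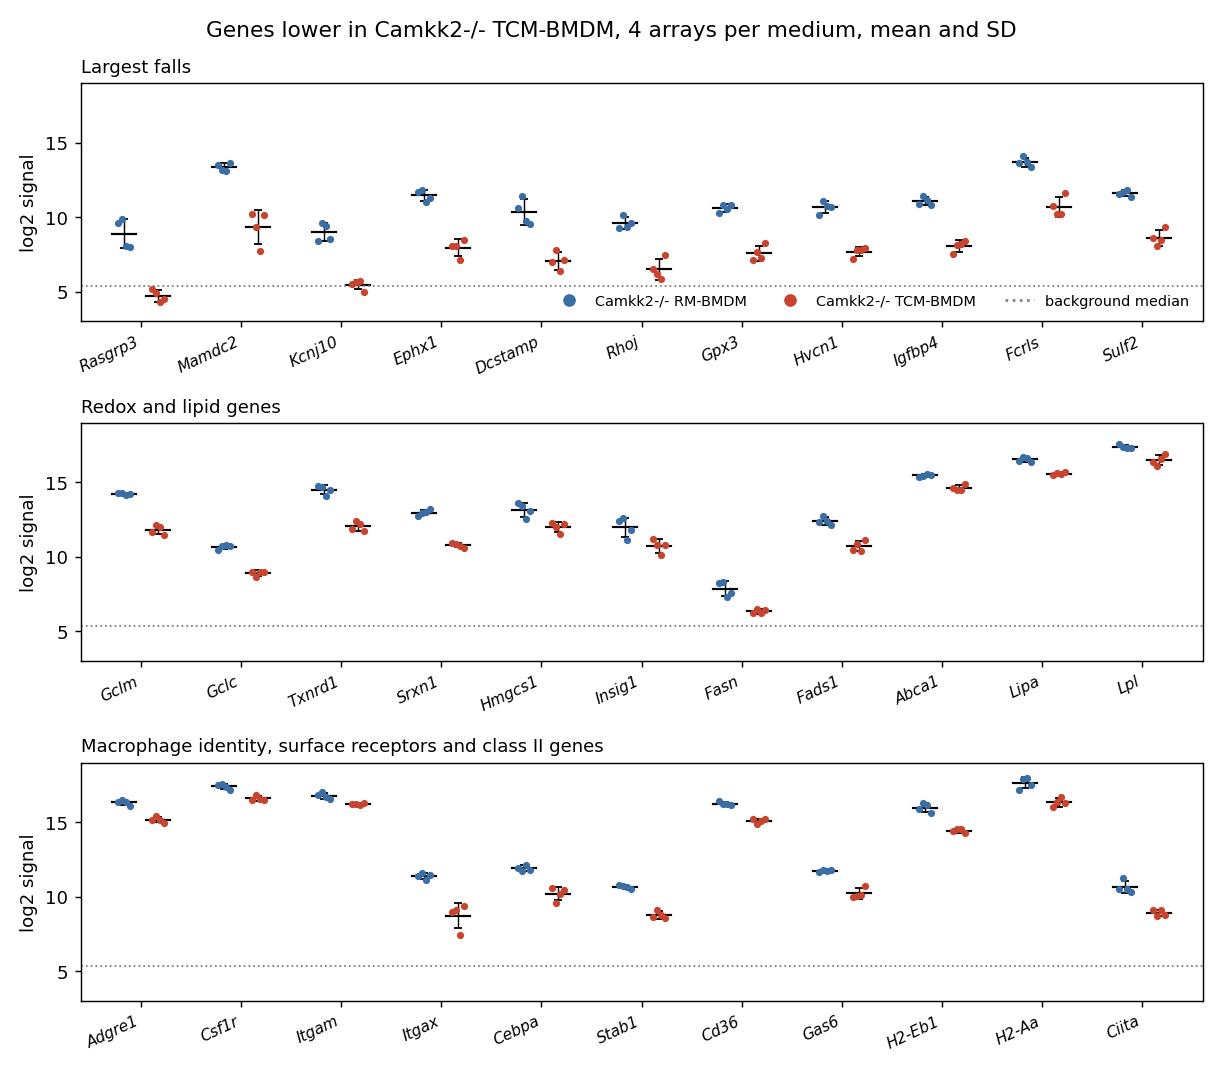
Log2 signal (y axis) of 33 genes in the 4 Camkk2-/- RM-BMDM arrays (blue) and the 4 Camkk2-/- TCM-BMDM arrays (red), with mean and SD as black bars and the background median of 5.37 as a dotted line. Rasgrp3 and Kcnj10 reach background in TCM, whereas Adgre1, Csf1r, Lpl and H2-Aa fall by 0.81 to 1.32 on the log2 scale and stay far above background.

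The transcription factor NRF2 drives genes for glutathione and thioredoxin metabolism through the antioxidant response element (ARE) in their promoters. Of 20 NRF2 and iron genes 9 fell and 3 rose, where 5.37% of all genes fell. Gclm, the modifier subunit of the enzyme that starts glutathione synthesis, was at 14.27, 14.27, 14.17 and 14.19 in RM and 11.69, 12.17, 11.99 and 11.47 in TCM. Its RM arrays differed by 0.1 and the fall was larger than that spread by far (log2 fold change -2.40, standard error 0.17, adjusted p = 1.12e-08). Gclc, the catalytic subunit of the same enzyme, went from 10.49, 10.73, 10.77 and 10.76 to 9.0, 8.63, 9.01 and 9.02 (log2 fold change -1.77, standard error 0.16, adjusted p = 2.54e-07). Txnrd1, the cytosolic thioredoxin reductase, was at 14.74, 14.70, 14.11 and 14.49 in RM and 11.89, 12.44, 12.18 and 11.74 in TCM (log2 fold change -2.45, standard error 0.20, adjusted p = 8.38e-08), and Srxn1, which repairs peroxiredoxins, fell by 2.19 on the log2 scale (adjusted p = 1.56e-05). In these 4 genes the arrays of the 2 media did not overlap. Hmox1, heme oxygenase and another NRF2 target, had a log2 fold change of -0.03 (adjusted p = 0.942) and is likewise outside that rule. The members that rose are also known outside this pathway: the heme and iron scavengers haptoglobin, Hp (2.80), and lipocalin 2, Lcn2 (2.39), are neutrophil and acute phase proteins, and Spic (1.14) is a factor of red pulp macrophages (adjusted p = 0.000144, 0.00285 and 0.00563).

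The promoters of Gclm and Txnrd1, which had the largest falls of this list, are shown from the same table, with capitals for every match to the ARE core TGACNNNGC on either strand (GCNNNGTCA on the other strand).
Gclm, chr3:122245307-122245606, plus strand: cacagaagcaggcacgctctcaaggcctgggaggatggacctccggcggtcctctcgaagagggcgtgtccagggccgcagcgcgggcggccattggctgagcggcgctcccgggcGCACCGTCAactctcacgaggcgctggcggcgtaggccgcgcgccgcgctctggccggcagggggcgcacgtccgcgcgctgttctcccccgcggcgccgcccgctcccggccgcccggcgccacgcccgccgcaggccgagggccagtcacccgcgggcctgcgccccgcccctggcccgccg
Txnrd1, chr10:82858956-82859255, plus strand: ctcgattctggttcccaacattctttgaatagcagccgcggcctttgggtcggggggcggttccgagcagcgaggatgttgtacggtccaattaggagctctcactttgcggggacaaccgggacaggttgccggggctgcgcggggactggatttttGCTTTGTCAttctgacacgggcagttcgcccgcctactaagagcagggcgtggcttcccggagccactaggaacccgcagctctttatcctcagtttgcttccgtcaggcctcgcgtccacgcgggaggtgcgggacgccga
Each has 1 match, which starts 134 bases before the gene in Gclm and 92 in Txnrd1, where the window with a match is 1 of 3. A match was held by 4 of 14 list members with a window and by 15% of all measured genes. Among all genes that fell the share was 18.8%, and among all that rose it was a similar 17.1%.

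Cells make sterols and unsaturated fatty acids under the control of SREBP factors, and of 19 genes of sterol synthesis and uptake 8 fell and 0 rose (median log2 fold change -0.86). This count was 4 without RM replicate 1, 3 without RM replicate 2 and 2 without TCM replicate 3. Hmgcs1, which makes HMG-CoA, was at 13.61, 13.43, 12.51 and 13.08 in RM and 12.30, 12.03, 11.54 and 12.18 in TCM (log2 fold change -1.15, standard error 0.26, adjusted p = 0.00466). Hsd17b7, an enzyme late in the pathway, went from 9.18, 9.53, 8.59 and 8.14 to 7.84, 7.38, 7.12 and 7.69 (log2 fold change -1.35, standard error 0.29, adjusted p = 0.00341). Both kept their groups apart, while the SREBP retention factor Insig1 overlapped between media (12.42, 12.58, 11.16 and 11.83 against 11.19, 10.81, 10.10 and 10.82, log2 fold change -1.27, standard error 0.34, adjusted p = 0.0159). The call of Insig1 was lost without RM replicate 1 or 2 or TCM replicate 3 (adjusted p = 0.0549 to 0.0704). Of 11 genes of fatty acid synthesis 4 fell and 0 rose, among them the desaturase Fads1 by 1.68, the fatty acid synthase Fasn by 1.52 and the elongase Elovl5 by 0.98 on the log2 scale (adjusted p = 0.000171, 0.000239 and 0.000755). The cholesterol exporter Abca1, the lysosomal acid lipase Lipa and the phospholipid transfer protein Pltp fell by 0.84, 0.94 and 0.94 (adjusted p = 0.00585, 5.78e-05 and 0.00242), and these were the 3 called of 9 LXR targets and efflux genes.

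Glycolysis and hypoxia genes rose in 6 of 24 cases and fell in 0, with 3 higher when any one of RM replicates 1 and 2 and TCM replicates 1 and 2 was left out. Pfkfb3, which makes the activator of phosphofructokinase, was at 10.19, 10.98, 10.23 and 10.50 in RM and 11.74, 11.95, 12.21 and 11.71 in TCM (log2 fold change 1.43, standard error 0.19, adjusted p = 2.06e-05). Bnip3 and Egln3, targets of hypoxia-inducible factors, rose by 1.72 and 1.79 (adjusted p = 0.000457 and 0.0104), with arrays that overlapped between media. In the integrated stress response 4 of 15 rose (2 without TCM replicate 3), among them the factor Ddit3 (1.55, adjusted p = 0.000102) and the mitochondrial folate enzyme Mthfd2 (1.17, adjusted p = 0.000265), and 1 fell.

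Immediate early genes moved both ways, 7 up and 3 down of 22, with 4 up when RM replicate 3 or TCM replicate 1 or 2 was left out. A pair of zinc finger factors of the EGR family went apart. Egr1 rose from 10.48, 10.93, 10.12 and 10.20 to 12.62, 12.52, 12.13 and 12.99 (log2 fold change 2.14, standard error 0.28, adjusted p = 2.13e-05). Egr2, a factor of macrophage differentiation, fell from 13.45, 13.67, 13.21 and 13.11 to 11.53, 11.56, 11.11 and 12.09 (log2 fold change -1.78, standard error 0.19, adjusted p = 1.55e-06). The phosphatase Dusp1 and the AP-1 subunit Jun rose by 1.67 and 1.12 (adjusted p = 0.000206 and 0.000132), while the AP-1 subunit Jund fell by 0.66 on the log2 scale (adjusted p = 0.0104). Of 15 NF-kB subunits and feedback genes 2 rose and 1 fell, near the shares of all genes above background (9.85% and 9.04%). Few cell cycle and DNA replication genes were called, with 1 higher and 1 lower of 43, although 31 had a negative log2 fold change (median -0.25). The mean over this list ran from 7.15 to 7.96 in the RM arrays and from 7.14 to 7.58 in TCM. Few calls under that spread do not show that these genes were unchanged. The one that rose was Ccnd2, which encodes cyclin D2, from 7.47, 7.70, 7.25 and 6.62 in RM to 10.61, 10.73, 10.39 and 9.50 in TCM (log2 fold change 3.05, standard error 0.33, adjusted p = 1.84e-06).

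Among the kinases of the CaMK and AMPK families a few fell. Of 19 such genes 4 fell and 1 rose. The one that rose was the residual signal of the deleted Camkk2, which overlapped between media. Its call was lost with single arrays left out, as given above, and in the 8 Camkk2-/- arrays alone. Camk1d, a CaMKI isoform and thus of the kinases that CaMKK2 phosphorylates, was at 11.00, 11.29, 11.08 and 10.91 in RM and 9.88, 9.92, 9.93 and 10.04 in TCM (log2 fold change -1.13, standard error 0.20, adjusted p = 0.000458). Camk2a, Camk1 and the AMPK subunit Prkab2 fell by 1.27, 0.70 and 0.87 on the log2 scale (adjusted p = 0.000543, 0.00887 and 0.000602). Matrix, protease and growth factor genes were spread over both directions (7 up and 8 down of 30), with 5 down when any one of RM replicates 1, 2 and 4 and TCM replicate 1 was left out. Kdr, the VEGF receptor 2, went from 8.20, 8.30, 9.14 and 9.28 to 13.27, 13.66, 13.56 and 12.48 (log2 fold change 4.51, standard error 0.35, adjusted p = 3.69e-08). Pdgfc, a platelet-derived growth factor, rose by 3.31, Thbs1, thrombospondin 1, by 3.09, and the collagenases Mmp14 and Mmp13 by 2.70 and 2.22 (adjusted p = 1.46e-07, 5.53e-06, 0.000369 and 1.11e-06). Of 17 complement genes 3 rose and 4 fell (2 without RM replicate 2), and Cfb was joined by C4b (1.33, adjusted p = 0.000801), while the anaphylatoxin receptor C5ar1 and the inhibitor of membrane attack Cd59a fell (-0.97 and -1.25, adjusted p = 0.00483 and 0.000429). Of 16 integrins and their ligands 2 rose and 4 fell.

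Whether the knockout response differs from that of WT was tested as a difference of the 2 responses. In WT BMDM 431 genes rose (2.21%) and 136 fell (0.697%), and of these the knockout also had 86.3% higher and 84.6% lower. In the other direction WT shared 31.1% of the knockout's rising and 11% of its falling genes. A gene called in the knockout alone is not thereby shown to differ, and the difference itself passed the test for 28 genes (0.144%), 10 (0.0513%) with a more positive and 18 (0.0923%) with a more negative response in the knockout. All 28 were also called in the knockout response itself, although Akr1c18 (0.66) lost that call without any one of the 4 RM arrays and TCM replicates 3 and 4 of the knockout (adjusted p = 0.0554 to 0.156). WT TCM replicate 3 stood apart from the other WT TCM arrays in the interferon-response genes: its mean over the antiviral effectors was 12.45, against 13.43 to 13.56 in the others and 11.28 to 12.21 in WT RM. Without it 14 genes passed, all of them among the 28, and all 28 kept their direction. With each of the 16 arrays left out in turn, 9 genes passed every time, namely Cxcl11, Sectm1a, BC147527, Slc28a2b, Kcnj10, Sort1, Gclm, Gpc1 and Pdlim4, and the other 19 failed at least once. No member of the antiviral effector, TRIM and Schlafen or MHC class I lists passed the test of the difference. The median difference over the GBP and IRG list was 1.53 with WT TCM replicate 3 and 1.10 without it, and over the antiviral effectors 0.91 and 0.66. Over the inflammatory monocyte genes it changed sign, from 0.19 with that array to -0.23 without it.

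Cxcl11 had the largest difference. Its WT arrays spanned 3.02 to 3.97 in RM and 3.65 to 6.27 in TCM, and the 4 Camkk2-/- TCM arrays all lay above every WT array (difference 5.43, standard error 0.60, adjusted p = 0.000357). Sectm1a had signals of 7.44, 6.81, 7.07 and 5.79 in Camkk2-/- TCM-BMDM, while the other 3 groups stayed below background, between 3.79 and 4.66 (difference 2.46, standard error 0.38, adjusted p = 0.00908). The nucleoside transporter gene Slc28a2b was lower in Camkk2-/- RM (8.01, 7.65, 7.65 and 7.44) than in WT RM (8.32 to 8.68) and higher in Camkk2-/- TCM (9.81, 9.62, 9.91 and 9.06) than in WT TCM (8.76 to 8.90, difference 1.56, standard error 0.25, adjusted p = 0.0133). BC147527 rose in both genotypes, by 3.40 in the knockout and 1.44 in WT (difference 1.96, standard error 0.30, adjusted p = 0.00908). The other genes with a more positive response were Akr1c18, Gbp8, Kcnab1, Selenow, Parp10 and Rbl1, with differences of 1.69, 1.77, 1.74, 1.62, 1.43 and 1.36. Each of these 6 failed the test with some array left out, with a highest adjusted p of 0.0619, 0.114, 0.0758, 0.0624, 0.0621 and 0.0614. Of the 16 arrays left out in turn, the call was kept for 15, 2, 7, 8, 7 and 9, respectively.

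Among the genes with a more negative response some differed between genotypes already in RM, which is given here as a description. Kcnj10 was at 8.42, 9.60, 9.39 and 8.53 in Camkk2-/- RM against 5.34 to 5.85 in WT RM. In TCM it was at 5.51, 5.65, 5.69 and 5.00 in the knockout and 4.77 to 5.76 in WT, so that the genotypes overlapped there (difference -3.17, standard error 0.37, adjusted p = 0.000357). Fn1 had the same form, with 12.87, 12.52, 11.90 and 11.67 in Camkk2-/- RM and 10.49, 10.48, 8.13 and 10.31 in Camkk2-/- TCM. Its WT arrays spanned 9.06 to 9.91 in RM and 10.10 to 10.71 in TCM (difference -3.30, standard error 0.56, adjusted p = 0.0188). The call of Fn1 was lost without Camkk2-/- RM replicate 2 or WT RM replicate 2 or 4 (adjusted p = 0.0543 to 0.0678). Sort1, the sorting receptor sortilin, lay above WT in RM (12.18, 12.15, 12.21 and 12.07 against 10.92 to 11.50) and below WT in TCM (10.42, 10.43, 10.26 and 10.41 against 10.97 to 11.28, difference -1.68, standard error 0.21, adjusted p = 0.000978). Gclm fell in both genotypes, by 2.40 on the log2 scale in the knockout and by 0.88 in WT, where the arrays spanned 13.81 to 14.00 in RM and 12.86 to 13.42 in TCM (difference -1.51, standard error 0.24, adjusted p = 0.00908). Pdlim4 and the proteoglycan Gpc1 had differences of -1.27 and -1.40 (adjusted p = 0.00908 and 0.0139). The GTPase Rhob, the secreted kinase Fam20c, Hvcn1 and Lrrc32, which encodes the TGF-beta docking protein GARP, had differences of -1.69, -1.57, -2.33 and -1.88. Each failed with some array left out (highest adjusted p 0.0701, 0.0678, 0.074 and 0.0678). Their calls were kept for 7, 9, 11 and 10 of the 16 arrays left out in turn. Egr2, Fcrls, Itgax and Mamdc2, which also passed with a more negative response, kept theirs for 7, 3, 8 and 8.

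**Figure D5:**
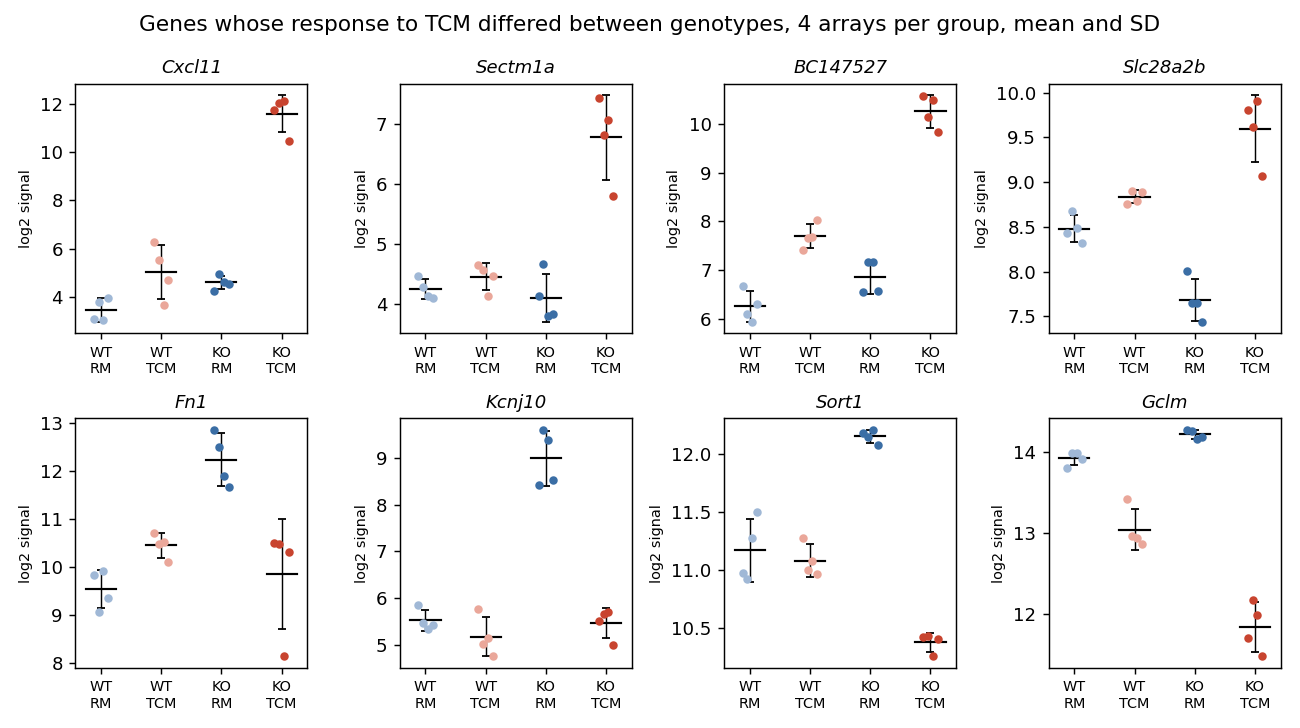
Log2 signal (y axis, a scale of its own in each panel) of 8 genes whose response to TCM differed between genotypes, in the 4 arrays of each group (WT and Camkk2-/-, written KO, in RM and TCM), with mean and SD as black bars. In Cxcl11, Sectm1a and BC147527 the KO TCM arrays lie above all others, and in Kcnj10 and Fn1 the KO RM arrays do.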

How the data were processed

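Total RNA of the 16 BMDM samples was labelled and hybridised to Affymetrix mouse arrays, 1 per sample. The values used are log2 signals per probe set as deposited by the authors, made with Affymetrix Expression Console per the submitters' processing notes. How the signals were summarized and normalized, and the genome build, are not given in the sources read for this work. Probe sets with a single gene symbol in the platform annotation were kept and control and unnamed ones left out. A gene with several probe sets was read from the brightest of them on average across the 16 arrays, leaving 19505 genes. Samples were grouped by the genotype and medium of their labels. The number of arrays limits the precision.

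A linear model with the 4 groups was fitted over all arrays with limma 3.58.1 (moderated test, lmFit and eBayes), giving the knockout response, the WT response and their difference. P-values were adjusted by Benjamini-Hochberg over all genes, and an adjusted p under 0.05 was called. The test was tried on simulated data beforehand. The rule for named genes took Camkk2 and the 15 largest changes in each direction. Those had to be called, with arrays without overlap and a higher mean above the median of 23 antigenomic background probe sets. It also took up to 5 members of each list by p, members against their list's direction and 10 genes in each direction of the difference. Not every gene that this rule gave is named above, and some called list members appear only in the counts. Genes, lists and tests were chosen with earlier results of these data known. Lists overlap in part, and list members without a probe set of their own are not analysed here. Alternatives were other scalings, variance estimates, probe set rules, filters and thresholds, the replicate number as a block and each array left out in turn.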

Additional observations from a re-analysis of the deposited data

Results flagged for a closer look

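The 364 sets of 4 Camkk2-/- arrays of the genes named above, Mrc1 and Socs2 aside, were checked for an array that lay apart. In 27 (7.42%) the gap of the lowest or highest array from the other 3, as a share of the range, exceeded Dixon's critical value. Chance gives about 5%. RM replicate 1 stood apart in Acod1 (12.18 against 12.97 to 13.13), Ccl7 (8.589 against 7.293 to 7.384), Cd274 (12.63 against 13.87 to 14.06), Gclc (10.49 against 10.73 to 10.77), Ifi213 (5.821 against 6.921 to 7.018), Lpl (17.59 against 17.33 to 17.37), Oas1a (10.42 against 10.85 to 10.89) and Stat2 (13.84 against 14.54 to 14.62). TCM replicate 4 was the separate array for Adar (13.85 against 14.21 to 14.26), Cd40 (9.273 against 10.38 to 10.56), Gas6 (10.74 against 9.992 to 10.12), Ifit1bl1 (16.25 against 16.83 to 16.93), Oas1a (12.52 against 12.93 to 12.99) and Trim30b (10.47 against 11.42 to 11.58). TCM replicate 3 lay away from the others in Ccl7 (11.4 against 9.792 to 9.973), Efr3b (5.521 against 6.995 to 7.233), Fn1 (8.13 against 10.31 to 10.49), H2-Q4 (14.42 against 13.86 to 13.95) and Sort1 (10.26 against 10.41 to 10.43). RM replicate 2 set itself apart in Cd40 (9.195 against 8.055 to 8.139), H2-Eb2 (6.029 against 4.805 to 4.96) and Slfn9 (9.648 against 8.953 to 9.025). TCM replicate 2 differed from its group in Csf1r (16.83 against 16.5 to 16.53) and Gclc (8.633 against 9 to 9.018). TCM replicate 1 was the outlying array for Irf9 (10.81 against 11.11 to 11.17). RM replicate 4 was far from the rest in Jun (12.2 against 11.75 to 11.8) and Mmp13 (11.42 against 10.31 to 10.46).

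The log2 response of Camkk2-/- BMDM minus that of WT BMDM passed the limma test of the difference, with positive values, for 10 genes, namely Akr1c18 (1.69), BC147527 (1.96), Cxcl11 (5.43), Gbp8 (1.77), Kcnab1 (1.74), Parp10 (1.43), Rbl1 (1.36), Sectm1a (2.46), Selenow (1.62) and Slc28a2b (1.56), and with negative values for 18 genes, of which those named above were Egr2 (-1.46), Fam20c (-1.57), Fcrls (-2.52), Fn1 (-3.3), Gclm (-1.51), Gpc1 (-1.4), Hvcn1 (-2.33), Itgax (-2.28), Kcnj10 (-3.17), Lrrc32 (-1.88), Mamdc2 (-2.9), Pdlim4 (-1.27), Rhob (-1.69) and Sort1 (-1.68). Among these Gclm, BC147527, Gbp8 and Parp10 were also called in WT in the same direction, and Akr1c18 was called in the opposite one, with a knockout call that was lost with any one of 6 arrays left out.

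Probe sets without a gene symbol were not part of the comparisons above. Of 2634 such probe sets 256 (9.72%) were called between Camkk2-/- TCM-BMDM and RM-BMDM, 144 higher and 112 lower.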

How the results depend on the processing

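Among the counts over all genes, 1195 genes rose and 1047 fell in Camkk2-/- BMDM, and both stayed within 1.5 times of these under the other scalings, probe set rules, filter, array weights and variance estimates tried and in the 8 Camkk2-/- arrays alone. At an adjusted p under 0.01 limma called 745 higher and 534 lower genes, 7 in the difference between genotypes and 258 in WT BMDM (against 28 and 567). With a natural-log fold change above 0.5 asked for as well, 677 genes were lower, and trended, robust variance estimates called 44 in the difference. With each array left out in turn the counts ran from 911 to 1287 higher, 707 to 1154 lower, 10 to 51 in the difference and 328 to 666 in WT. The difference moved by over 1.5 times without any one of Camkk2-/- RM replicates 1, 2 and 4, Camkk2-/- TCM replicates 1, 2, 3 and 4, WT RM replicates 2 and 4 and WT TCM replicates 1 and 3, and the WT count without WT TCM replicates 2 and 4. Quantile normalization gave 1171 higher and 1393 lower genes (45.7% higher, against 53.3%). The cause was not tested.

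With the replicate number as a block 1199 genes were higher, 1054 lower, 32 passed in the difference and 576 in WT. Deviations of same-numbered Camkk2-/- arrays correlated at 0.027 to 0.126, and 2 of the 4 TCM arrays correlated best with their own number. After the data had been seen a term parting replicates 1 and 2 from 3 and 4 was also tried, and gave 1258, 1118, 42 and 632. The 8 lower sterol genes became 13 with the block and 14 with that term, and 1 sterol gene, against 0, was higher with either and with array weights.

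Small list counts also moved with single arrays left out, here named by medium and replicate with WT marked. The lower sensor count (1) was 0 without RM 3 or 4 or TCM 1 or 2 or 3, the lower CXC or CX3C chemokine count (1) was 0 without RM 1 or 2 or TCM 2 or 3 or 4 and the lower cytokine count (0) was 1 without WT RM 2 or WT TCM 1. The lower cytokine receptor count (1) was 2 without RM 4 or TCM 4 or WT RM 2 or WT TCM 1 or 3, the lower arginine, itaconate or tryptophan enzyme count (0) was 1 without RM 2 or TCM 1 and the higher osteoclast gene count (1) was 0 without RM 2 or TCM 2. The higher cell cycle gene count (1) was 2 without RM 1 or WT RM 1 or 2 or WT TCM 3 or 4, the lower cell cycle gene count (1) was 0 without RM 1 or 2 or TCM 2 or 3 and 2 without WT RM 2 and the higher NF-kB gene count (2) was 1 without RM 1 or 4 or TCM 2 or 3. The lower stress response gene count (1) was 0 without RM 1 or 2 or TCM 1 or 2 or 4 and the higher CaMK or AMPK kinase count (1) was 0 without RM 3 or 4 or TCM 1 or 3. Of 206 single-gene results 177 kept their direction and call under every alternative, and none of the others changed direction. Arrays have no read depth, and a change measured from below background depends on that background.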
